A study of Mus musculus with 45 samples.

Results

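The genes described here are the ligands Il4, Il5, Il13, Il9, Csf2 and Areg and the receptor chains Il4ra, Il5ra and Il13ra1. They are type 2 cytokine genes, the amphiregulin gene and chains of the receptors for IL-4, IL-5 and IL-13, 9 of 27179 genes in the count table. They were chosen by symbol, and each had 1 row in that table. Il4, Il13, Il5 and Csf2 lie on mouse chromosome 11 (GRCm38.p6, at 53612460 to 53618665, 53631323 to 53634702, 53720794 to 53725103 and 54247270 to 54249899). Areg lies on chromosome 5 (91139599 to 91148432), Il9 on chromosome 13 (56479277 to 56482257), Il4ra on chromosome 7 (125552271 to 125579474), Il5ra on chromosome 6 (106710375 to 106749037) and Il13ra1 on chromosome X (36112108 to 36171262). Counts are over whole genes, so no value distinguishes exons.

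Type 2 cytokines are made by helper T cells and by group 2 innate lymphoid cells (ILC2), tissue-resident lymphocytes that act without an antigen receptor. IL-5 sustains eosinophils, IL-4 and IL-13 act on macrophages and tissue cells through IL-4 receptor alpha, IL-9 acts on mast cells and lymphocytes, and GM-CSF, the product of Csf2, acts on myeloid cells. Amphiregulin is an epidermal growth factor (EGF) receptor ligand that Treg and ILC2 release in tissue repair. In fat, ILC2 and Treg both respond to IL-33 through its receptor ST2, encoded by Il1rl1.

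The series holds 45 RNA-seq libraries in 22 groups of C57BL/6 mice, made to study how regulatory T cells (Treg) of visceral adipose tissue (VAT) differ between the sexes. Each library pooled 3 to 5 mice of 25 weeks, except that no age is given for the spleen reporter Treg. VAT Treg (Foxp3RFP positive) and VAT CD4 T cells (RFP negative) came from reporter mice, in 2 male and 2 female libraries each, as did spleen Treg. Male Blimp1fl/flFoxp3cre Treg, 2 libraries each from VAT and spleen, were set against male Foxp3cre Treg, 1 library from VAT and 2 from spleen. In both strains Cre is driven by Foxp3, and the cells were sorted by the YFP that goes with it, although the label of the second Blimp1fl/flFoxp3cre VAT library does not name YFP. VAT ILC2, sorted as Lin-CD25+ST2+KLRG1+, had 2 libraries a sex, and so had stromal cells of VAT (CD45-Ter119-) with or without GP38, also called podoplanin. Whole VAT (epididymal in males, periovarian in females) had 3 libraries a sex, whose titles carry ND, unlike those of the other groups. Whole subcutaneous fat (SAT, inguinal) and VAT adipocytes, the fraction left after stromal vascular cells were removed, had 2 a sex. The control library labelled Foxp3cre VAT has a source text that speaks of spleens, while its title and tissue say VAT.

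Libraries held 4956080 to 61913009 counts. Foxp3 was at 804 and 592 CPM in male VAT Treg, against 474 and 389 CPM in female VAT Treg, at 0 to 4.42 CPM in VAT CD4 T cells and at 0 to 0.358 CPM in ILC2. Cd3e, a T cell receptor complex gene, was at 466 to 933 CPM in VAT Treg and 6.34 to 13.2 CPM in ILC2. Stromal cells without GP38 were labelled CD45-, but Ptprc, which encodes CD45, was at 345 and 433 CPM in the male and 199.7 and 204 CPM in the female libraries, against at most 1.71 CPM in GP38-positive cells. Cd3e in these GP38-negative libraries was at 216 and 234 CPM in the male and 47.7 and 38.8 CPM in the female libraries. Prdm1, the gene that encodes Blimp1, was not lower in libraries labelled Blimp1fl/flFoxp3cre: it was at 118 and 146 CPM in VAT and 66.7 and 43.1 CPM in spleen, against 73.5 CPM in Foxp3cre VAT and 25.9 and 18.5 CPM in Foxp3cre spleen Treg. A whole-gene count does not check a deletion of part of a gene, so directions drawn from these labels rest on the labels.

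CPM here are counts per 1000000, scaled with TMM factors within 4 separate fits, of sorted T cells, of ILC2, of stroma, and of whole fat with adipocytes. ILC2 and stromal libraries were made with another kit (Clontech) than the rest (TruSeq), so levels of different fits are set side by side without a test. Genes were called at an edgeR adjusted p under 0.05 over all genes of the fit. Members with too few counts were not tested: Il9 in T cells, Il5ra in ILC2, Il4, Il5, Il13 and Il9 in stroma, and Il4, Il5, Il9 and Csf2 in fat. The number tested is that of the whole fit. It includes members at 0 in both groups of a comparison, which could not be called there. A fold against a group with 0 counts was computed against 3 counts over that group, which covers counting error only.

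The promoter of Areg and those of Il5, Il13 and Csf2 are shown because these 4 ligand genes carried the differences between cell populations. The sequences are RefSeq's (GRCm38.p6), 300 bases each, 5′ to 3′ on the gene's strand, with 250 bases before the start site. Areg is at chr5:91139349-91139648 (plus strand), Il5 at chr11:53720544-53720843 (plus), Il13 at chr11:53634653-53634952 (minus) and Csf2 at chr11:54249850-54250149 (minus). Capitals mark matches, on either strand, to a GATA word (AGATAA or AGATAG, and also TGATAA or the word TGATAG), AP-1 (TGACTCA or TGAGTCA), the full CRE (TGACGTCA) or the NFAT core (TGGAAA); the GATA and NFAT words do not overlap each other.
Areg: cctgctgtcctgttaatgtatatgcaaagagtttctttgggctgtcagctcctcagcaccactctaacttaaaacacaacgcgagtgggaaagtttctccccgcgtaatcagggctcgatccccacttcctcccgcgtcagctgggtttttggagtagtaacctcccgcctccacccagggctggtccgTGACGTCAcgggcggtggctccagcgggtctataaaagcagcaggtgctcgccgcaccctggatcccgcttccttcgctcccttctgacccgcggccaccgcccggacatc
Il5: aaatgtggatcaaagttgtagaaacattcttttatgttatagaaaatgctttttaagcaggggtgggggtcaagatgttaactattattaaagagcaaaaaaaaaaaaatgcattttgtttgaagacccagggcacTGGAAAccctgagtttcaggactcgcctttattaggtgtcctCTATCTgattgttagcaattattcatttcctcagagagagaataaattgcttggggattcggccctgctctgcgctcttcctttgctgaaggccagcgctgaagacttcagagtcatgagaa
Il13: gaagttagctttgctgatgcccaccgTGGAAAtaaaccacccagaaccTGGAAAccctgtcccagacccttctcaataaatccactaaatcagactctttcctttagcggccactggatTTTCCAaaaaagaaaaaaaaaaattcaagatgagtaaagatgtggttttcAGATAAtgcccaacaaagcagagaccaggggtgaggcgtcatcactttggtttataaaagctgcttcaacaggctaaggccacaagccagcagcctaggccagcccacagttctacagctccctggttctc
Csf2: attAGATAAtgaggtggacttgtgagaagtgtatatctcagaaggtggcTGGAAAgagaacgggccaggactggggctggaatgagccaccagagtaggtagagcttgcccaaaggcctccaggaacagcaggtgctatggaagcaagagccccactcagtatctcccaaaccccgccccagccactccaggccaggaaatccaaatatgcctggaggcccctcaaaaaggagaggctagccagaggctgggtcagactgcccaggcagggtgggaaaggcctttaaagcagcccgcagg
The Areg window held the full CRE word 61 bases before the start site, a word found in 1.79% of 32851 promoters. The Il5 window held a GATA word on the minus strand 72 bases before the start site, and the Il13 window held one 81 bases before it. In Csf2 the GATA word lay 247 bases before the start site. GATA words were in 29.8% and NFAT words in 21.4% of all promoters of this length, and none of these 4 windows held an AP-1 word, which 5.2% of promoters hold. These matches describe letters and not binding.

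ILC2 held the highest levels of Il5 and Csf2. Areg in ILC2 was within the range of male VAT Treg or, in the second female library, above it. Csf2 had 2622 and 3032 CPM in male ILC2 and 2672 and 5470 CPM in female ILC2. Il5 had 494 and 1634 CPM in male ILC2 and 520 and 1577 CPM in female ILC2. Areg had 1538 and 1636 CPM in male ILC2, against 1301 and 3014 CPM in female ILC2. All 4 ILC2 libraries were high in these 3 genes, and the sexes overlapped in each. Il13, which drives mucus secretion and tissue repair programmes, was at 10.2 and 33.0 CPM in the male and 12.5 and 49.7 CPM in the female libraries. Il4, the classical helper T cell cytokine, had 27.0 and 19.5 CPM in male ILC2, against 9.89 and 19.0 CPM in female ILC2, without overlap between the sexes. Il9 had 0 and 18 counts in male and 1 and 12 counts in female ILC2 and 0 counts in all other libraries, which allows at most 0.142 CPM in the shallowest other group.

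**Figure D1:**
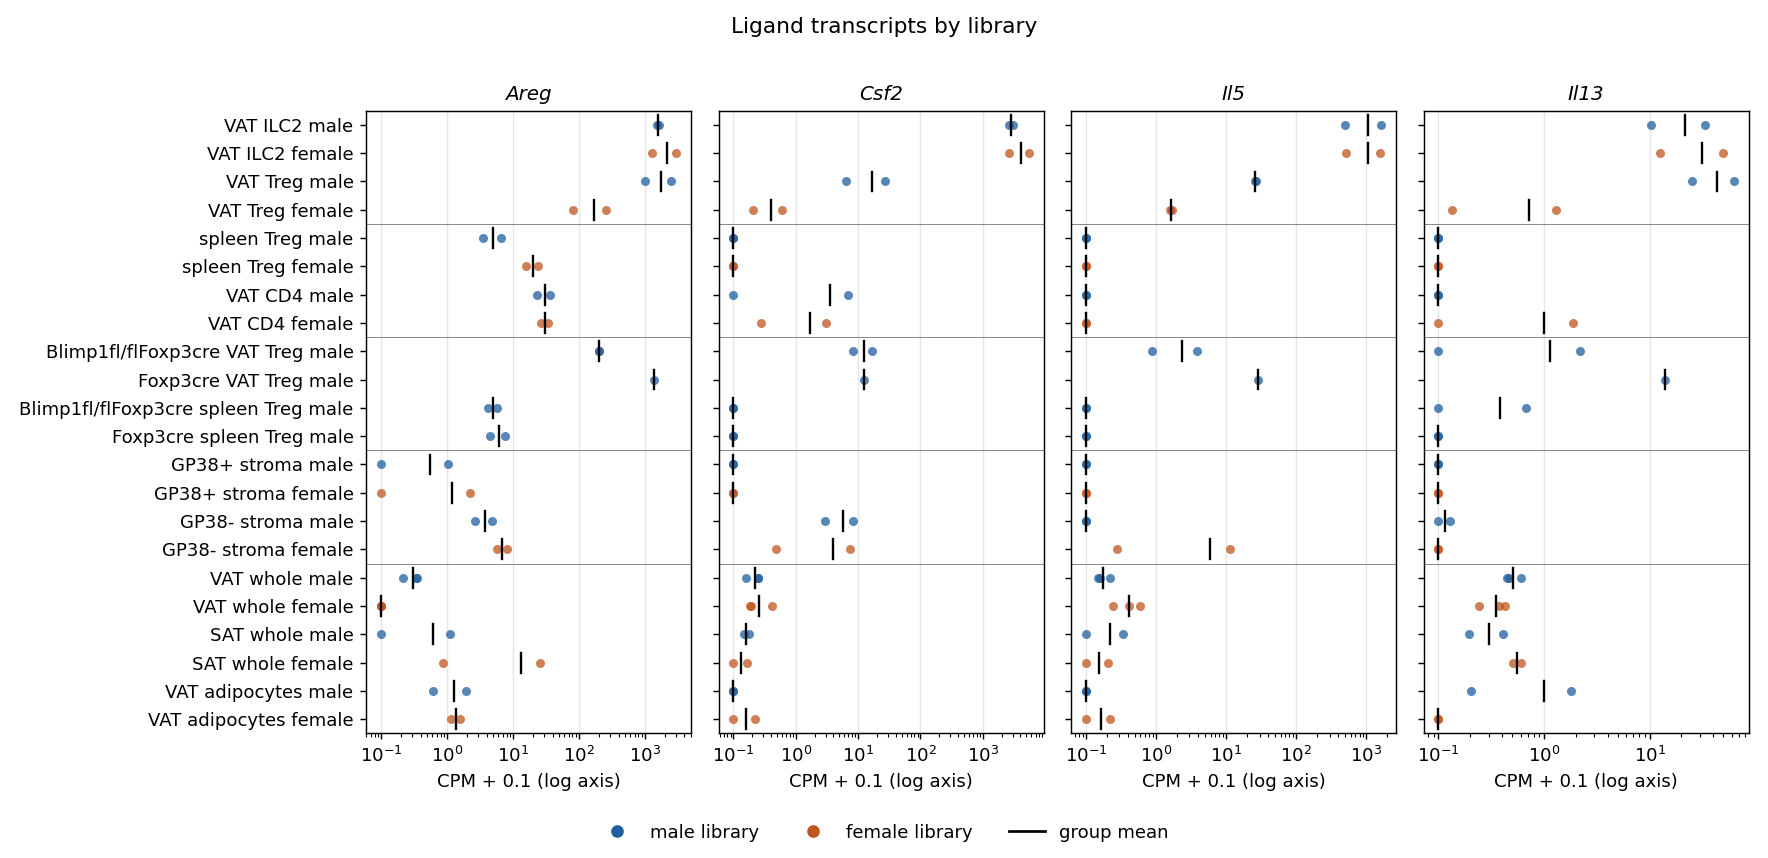
CPM of Areg, Csf2, Il5 and Il13 in every library (points, blue for male and orange for female) with the group mean (black line), on a log axis after a small constant was added so that 0 can be drawn. Csf2 and Il5 are highest in ILC2 and at 0 in reporter spleen Treg. Areg reaches 2514 CPM in male VAT Treg and 3014 CPM in female ILC2.

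The 6 ligand genes together made up 0.469% and 0.636% of reads in male and 0.452% and 1.01% in female ILC2. In VAT Treg they made up 0.263% and 0.105% in males and 0.0259% and 0.00823% in females. The mix differed as well. Per kilobase of exon, the ratio of Il13 to Il5 was 0.0263 and 0.0258 in male and 0.0306 and 0.0401 in female ILC2, but 3.1 and 1.22 in male VAT Treg. It was 1.06 in the first female VAT Treg library and 0.61 in Foxp3cre VAT Treg. The ratio of Areg to Csf2 per kilobase was 0.386 and 0.355 in male and 0.321 and 0.363 in female ILC2, against 60.6 and 105 in male VAT Treg. It was 336 in the first female VAT Treg library, 75.7 in Foxp3cre VAT Treg and 8.15 and 16.0 in VAT Treg labelled Blimp1fl/flFoxp3cre. ILC2 and Treg libraries came from different kits, and these ratios were not tested. Among the reads of the 6 ligand genes Csf2 had the largest share in each ILC2 library and Areg in each male VAT Treg library.

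None of the 8 members tested in ILC2 was called between the sexes by edgeR, where 0.0375% of 13332 genes passed. DESeq2 called 0 and 1 had an unadjusted p under 0.05. The log2 fold changes, male over female, were 0.02 (SE 0.67) for Il5, -0.52 (SE 0.75) for Il13, -0.53 (SE 0.46) for Csf2, -0.44 (SE 0.47) for Areg and 0.69 (SE 0.52) for Il4, each with an edgeR adjusted p of 1.0. Il4ra, the receptor chain that IL-4 and IL-13 share, had 39.8 and 44.3 CPM in male ILC2, against 70.6 and 78.6 CPM in female ILC2, also at an adjusted p of 1.0. Libraries with the same replicate number were more alike in Il5 and Il13 than libraries of the same sex. Of the pathway lists, 0 genes were called in ILC2 among 15 receptors upstream of type 2 cytokines, 19 transcription factors and 13 receptor partners (median log2 fold changes -0.03, -0.05 and -0.23, against 0.01 over all genes). Gata3, the transcription factor that type 2 lymphocytes need, had 536 to 871 CPM there.

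In VAT Treg, Areg was higher in males, and it was the single member called between the sexes. Areg had 2514 and 991 CPM in male VAT Treg, against 255 and 80.6 CPM in female VAT Treg. Both male libraries stood above both female ones. The mean was 1753 ± 1077 CPM in males and 167.8 ± 123 CPM in females (SD, n = 2 each), a log2 fold change of 3.38 with an SE of 0.51 (edgeR adjusted p = 0.000969). It was 1 of 8 members tested, and 1.61% of 17340 genes passed in either direction. The call was kept when any of these 4 libraries was left out and ended when the 4 libraries were fitted alone, at 3.42 (adjusted p = 0.272). In bulk RNA, fewer cells of a type and less RNA per cell cannot be told apart.

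Of the cytokine genes of chromosome 11, Il5, Il13 and Csf2 but not Il4 had the same direction in VAT Treg, without passing the test. Il5 had 25.7 and 26.2 CPM in the male and 1.46 and 1.58 CPM in the female libraries, a log2 fold change of 4.09 with an SE of 1.53 (edgeR adjusted p = 0.425). Il13 had 62.4 and 25.0 CPM in the male and 1.21 and 0.0351 CPM in the female libraries, 6.12 (SE 2.66, adjusted p = 0.582), the lower female value being 1 count. Csf2 had 27.3 and 6.2 CPM in the male and 0.499 and 0.105 CPM in the female libraries, 5.77 (SE 2.32, adjusted p = 0.485). Both males were above both females in each of these genes. How many of all genes separate in this way was not counted. Il4 had 0 CPM in both male libraries and 0.285 and 0 CPM in the female ones.

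Other measures moved with sex in the same libraries. Summed CPM of 15 immediate early genes, which activation and tissue handling raise, were 38960 and 24310 in VAT Treg of males, against 8670 and 9514 in those of females. In VAT CD4 T cells they were 10530 and 12090 in males and 8153 and 7028 in females, and in reporter spleen Treg 2731 to 3043 CPM. A list of 15 mast cell, basophil and eosinophil genes came to 399 and 259 CPM in male VAT Treg, against 35.0 and 81.2 CPM in female VAT Treg. Ccr3 had 380 and 228 CPM in males, against 29.9 and 38.8 CPM in females. It made up most of the sum in both male libraries and in the first female library, but not in the second. Fcer1a and Epx, which define mast cells or basophils and eosinophils, were at 0 in these 4 libraries. Each sum exceeded its Ccr3 value, so other genes of the list were present.

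A list of 14 ILC2 marker genes moved with sex as well, at 6628 and 5318 CPM in male VAT Treg, against 1358 and 1076 CPM in female VAT Treg; ILC2 had 8346 to 12340 CPM. Of the 14 genes, 14 in each male and 12 and 13 in the female libraries were above 0. Much of the male sum came from Il1rl1, Gata3 and Klrg1, which Treg of fat are known to express too; Klrg1, a receptor gene of differentiated lymphocytes, was at 2148 and 1966 CPM in male VAT Treg, against 118 and 129.6 CPM in female ones. Members of the list differed. Calca, a neuropeptide gene, was at 31.8 and 57.3 CPM in male VAT Treg, against 1.96 and 1.12 CPM in female VAT Treg; ILC2 had 292 to 696 CPM. Arg1, the arginase gene, was at 1.56 and 4.49 CPM in male VAT Treg, against 1.86 and 4.31 CPM in female VAT Treg; ILC2 had 1095 to 2715 CPM. B cell genes were lower in males, at 494 and 1158 CPM, against 3021 and 1734 CPM in females, while macrophage, fibroblast, endothelial, mesothelial and adipocyte lists overlapped between the sexes. Whether any of these lists has a part in the sex differences of Areg, Il5, Il13 and Csf2 was not tested.

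The 3 T cell libraries highest in markers of other cells were VAT CD4 male 2 (10450 CPM), VAT Treg female 2 (6201 CPM) and VAT Treg male 2 (6169 CPM). Without them, a choice made after seeing the data, Areg was at 3.32 in VAT Treg (adjusted p = 7.16e-05). That leaves 1 male and 1 female VAT Treg library, which are assumed to vary like the other T cell groups.

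In spleen Treg and VAT CD4 T cells no member passed the edgeR test between the sexes. Areg had 6.58 and 3.38 CPM in male spleen Treg, against 23.8 and 15.7 CPM in female spleen Treg, below in both males, at -1.97 (SE 0.49, edgeR adjusted p = 0.319). It was 0 of 8 members, 0.075% of genes passed, 1 member had an unadjusted p under 0.05, and DESeq2 called Areg (adjusted p = 0.00475). Of the 8, Il5, Il13 and Csf2 were at 0 in spleen Treg of both sexes and could not be called. In VAT CD4 T cells Areg had 36.8 and 23.5 CPM in the male and 26.6 and 34.1 CPM in the female libraries, at -0.02 (SE 0.47), and the sexes overlapped. There 0 of 8 members passed, against 1.48% of genes. Il5 and Il5ra, at 0 in CD4 T cells of both sexes, could not be called. An unadjusted p under 0.05 was found for 1 member, and DESeq2 called Il13ra1.

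VAT Treg were then set against spleen Treg, the question being which transcripts mark Treg of fat. In males 4 of 8 members were higher in VAT and 0 were lower, and 6.56% of genes passed in either direction. Areg had 2514 and 991 CPM in male VAT Treg, against 6.58 and 3.38 CPM in male spleen Treg, a log2 fold change of 8.44 with an SE of 0.64 (edgeR adjusted p = 2.54e-07). Il5, Il13 and Csf2 had 0 counts in both male spleen libraries, and their levels in VAT were at least 764-fold (adjusted p = 0.00605), 1260-fold (0.0475) and 479-fold higher (0.0342). With 0 counts in spleen these genes could only come out higher, so the count of 4 against 0 says nothing about their direction. The call of Il5 ended without the first spleen library (adjusted p = 0.0777). That of Il13 ended when any 1 of the 4 libraries was left out (0.0674 to 0.321), and that of Csf2 without either spleen library or the first VAT one (0.144 to 0.269). Among the ligands tested Il4 did not share this direction, at 0 CPM in both male VAT libraries and 4.98 and 0 CPM in male spleen Treg (adjusted p = 0.267). DESeq2 called neither Il5 nor Il13 (adjusted p = 0.0622 and 0.0817), and with the replicate number as a block Il13 and Csf2 missed the threshold (0.0961 and 0.0684). Marker lists moved with these genes: the ILC2 list came to 6628 and 5318 CPM in VAT Treg of males, against 816 and 728 CPM in their spleen Treg. The mast cell, basophil and eosinophil list came to 399 and 259 CPM in VAT Treg of males, against 63.0 and 57.7 CPM in their spleen Treg. Immediate early, fibroblast, endothelial, mesothelial and adipocyte genes were also higher in both VAT libraries, and B cell genes were lower. Their part in these differences was not tested.

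In females 1 of 8 members passed, Areg, at 255 and 80.6 CPM in female VAT Treg and 23.8 and 15.7 CPM in female spleen Treg (log2 fold change 3.08, SE 0.51, edgeR adjusted p = 0.00436), where 1.71% of genes passed. The adjusted p was 0.0515 without the first female spleen library and 0.185 with the 4 female libraries fitted alone. Il5 was at least 17.4-fold higher in female VAT than in spleen Treg but did not pass (adjusted p = 0.0945). The difference between VAT and spleen was itself larger in males for Areg, by 5.35 (SE 0.71, edgeR adjusted p = 0.000872). It was the single member called among 8, where 0.531% of genes passed. Il5, Il13 and Csf2, at 0 in spleen Treg of both sexes, could not be called in this test. Their fitted values, 4.09, 6.12 and 5.77, rest on the VAT Treg libraries. Il5ra, at 0 in both female groups, could not be called either. The Areg interaction was kept with any library left out and had an adjusted p of 0.0878 with the 4 groups fitted alone.

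Within VAT, Treg were compared with CD4 T cells. In males Areg had 2514 and 991 CPM in Treg, against 36.8 and 23.5 CPM in CD4 T cells, a log2 fold change of 5.87 with an SE of 0.57 (edgeR adjusted p = 7.54e-06). Il5 had 0 counts in all 4 CD4 libraries, so it could only come out higher, and was at least 394-fold higher in male Treg (adjusted p = 0.0166). Areg and Il5 were the 2 of 8 members called higher, with 0 lower, where 2.43% of genes passed. Il13, at 0 in both male CD4 libraries, was at least 650-fold higher in male Treg without passing (edgeR adjusted p = 0.12). It passed with no filter on low counts (0.024). When any 1 of the 4 male libraries was left out the adjusted p of Il5 was 0.052 to 0.11, and it was 0.183 without the 3 T cell libraries named above, which leaves 1 Treg and 1 CD4 library. DESeq2 did not call Il5 either (0.163). With the 4 male libraries fitted alone the adjusted p was 0.249 for both Areg and Il5. The ILC2 list summed to 6628 and 5318 CPM in male Treg and 1313 and 865 CPM in male CD4 T cells, and its part was not tested. In females 1 of 8 members passed, where 3.54% of genes did: Areg had 255 and 80.6 CPM in Treg and 26.6 and 34.1 CPM in CD4 T cells, a log2 fold change of 2.47 (SE 0.49, adjusted p = 0.00709). That call ended without either CD4 library or the first Treg library (0.0669 to 0.152), and with the 4 female libraries fitted alone (0.134). The excess of Treg over CD4 T cells was larger in males for Areg by 3.40 (SE 0.68, edgeR adjusted p = 0.0345), as 1 of 8 members where 0.317% of genes passed. Il4 (at 0 in both male groups), Il5 (at 0 in CD4 T cells of both sexes) and Il5ra (at 0 outside male Treg) could not be called here. Leaving out 5 of the 8 libraries in turn ended the Areg call: CD4 female 1, CD4 female 2, CD4 male 2, Treg female 2 or Treg male 1 (0.0519 to 0.183). Fitting these 8 libraries alone ended it too (0.574).

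Male Treg labelled Blimp1fl/flFoxp3cre, with floxed Blimp1 alleles, were compared with Foxp3cre Treg. Areg had 203 and 199.8 CPM in VAT libraries labelled Blimp1fl/flFoxp3cre, against 1395 CPM in the single Foxp3cre library, a log2 fold change of -2.79 with an SE of 0.55 (edgeR adjusted p = 0.0198). As the Foxp3cre group has 1 library, the spread comes from the other T cell groups. The call ended without either library labelled Blimp1fl/flFoxp3cre (adjusted p = 0.181 and 0.192). Il5 had 3.78 and 0.784 CPM in libraries labelled Blimp1fl/flFoxp3cre and 28.8 CPM in Foxp3cre (-3.66, SE 1.63, adjusted p = 0.57). Il13 had 0 and 2.1 CPM in libraries labelled Blimp1fl/flFoxp3cre and 13.8 CPM in Foxp3cre (-3.71, SE 2.57, adjusted p = 0.811). Csf2 had 16.4 and 8.23 CPM in libraries labelled Blimp1fl/flFoxp3cre and 12.1 CPM in Foxp3cre (0.02, SE 2.31, adjusted p = 1.0). Both libraries labelled Blimp1fl/flFoxp3cre were below the 1 control library in Areg, Il5 and Il13, while the control lay between them in Csf2. How many of all genes separate from that library in this way was not counted, and Il5 and Il13 did not pass. Areg was 1 of 8 members called, where 0.819% of genes passed. The immediate early sum was 9727 and 9165 CPM in the libraries labelled Blimp1fl/flFoxp3cre and 26950 CPM in Foxp3cre. ILC2 genes summed to 1220 and 1148 CPM in libraries labelled Blimp1fl/flFoxp3cre and 4992 CPM in Foxp3cre, and mast cell, basophil and eosinophil genes to 21.2 and 19.0 CPM in libraries labelled Blimp1fl/flFoxp3cre and 303 CPM in Foxp3cre. Fibroblast genes were at 153.7 and 201 CPM in libraries labelled Blimp1fl/flFoxp3cre and 879 CPM in Foxp3cre. Adipocyte genes were at 67.7 and 61.3 CPM in libraries labelled Blimp1fl/flFoxp3cre and 495 CPM in Foxp3cre, and mesothelial genes at 6.75 and 8.14 CPM in libraries labelled Blimp1fl/flFoxp3cre and 102.5 CPM in Foxp3cre. Macrophage and B cell genes were higher in both libraries labelled Blimp1fl/flFoxp3cre. The part of these lists in the difference was not tested.

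In spleen, Areg had 5.66 and 4.13 CPM in libraries labelled Blimp1fl/flFoxp3cre and 4.44 and 7.57 CPM in Foxp3cre Treg (-0.28, SE 0.50), overlapping. Il5 and Csf2 had 0 counts in all 4 libraries. Il4 had 5.2 and 7.85 CPM in libraries labelled Blimp1fl/flFoxp3cre and 1.44 and 0 CPM in Foxp3cre Treg (3.16, SE 3.16, edgeR adjusted p = 1.0). None of 8 members was called, 0 had an unadjusted p under 0.05, DESeq2 called 0, and 0.317% of genes passed.

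The neighbourhood of the chromosome 11 genes was examined for whether whole stretches differed. Il4 and Il13 are 12.7 kb apart, Il13 and Il5 86.1 kb, and Il5 and Csf2 522.2 kb. Rad50, the DNA repair gene between Il13 and Il5, averaged 116 CPM in male and 167 CPM in female ILC2, and 19.3 CPM in male VAT Treg against 3.35 CPM in male spleen Treg (edgeR adjusted p = 0.109). Irf1, an interferon regulatory factor gene beyond Il5, averaged 197 CPM in male VAT and 299 CPM in male spleen Treg (adjusted p = 0.193). Il3, next to Csf2, averaged 3.9 and 2.56 CPM in male and female ILC2 and was at 0 in VAT Treg and male spleen Treg. Of 13 neighbouring genes tested, 0 were called between the sexes in VAT Treg, where 1.61% of all genes passed. Their median log2 fold change was 0.23, against -0.04 over all genes. Between male VAT and spleen Treg 1 was called higher, the elongation factor gene Aff4 (1.54, SE 0.34, edgeR adjusted p = 0.00862). There 6.56% of all genes passed, and 1 of 13 is near that share. The median of the 13 neighbours was 0.93, against 0.02 over all genes. The call of Aff4 ended without the first VAT or either spleen library.

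**Figure D2:**
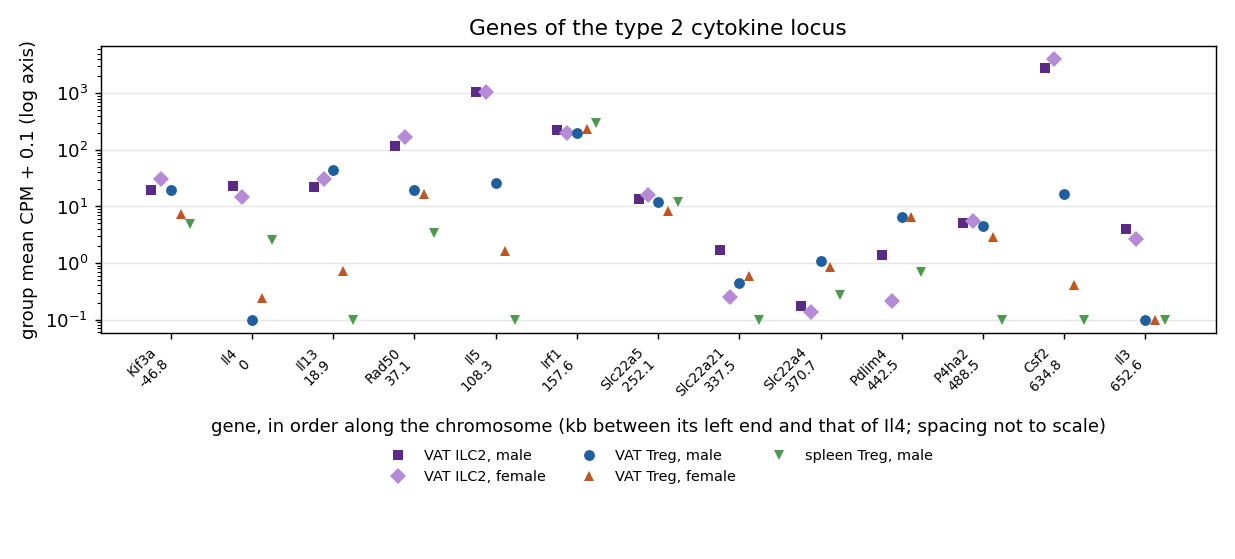
Group mean CPM (log axis, after a small constant was added) of genes along chromosome 11 in VAT ILC2, VAT Treg and male spleen Treg, with each gene's distance in kb from Il4. Il13, Il5 and Csf2 are at 0 in male spleen Treg, while Irf1 stays between 197 and 299 CPM.

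Among genes known to act upstream, 16 receptors were tested in VAT Treg, of which 4 were higher and 1 lower in males, with a median log2 fold change of 0.67. Over all genes 1.61% passed in this comparison and the median was -0.04, which also stands beside the lists that follow. Il1rl1 had 2524 and 1874 CPM in male VAT Treg, against 117 and 149 CPM in female VAT Treg (4.05, SE 0.27, edgeR adjusted p = 1.26e-07). Il2ra (1.55), Il7r (1.53) and Tnfrsf25 (1.92), receptor genes for IL-2, IL-7 and the TNF family ligand TL1A, were higher, and the IL-18 receptor gene Il18r1 was lower (-2.19). Of 20 transcription factors 3 were higher and 2 lower, with a median of -0.09: Gata3 (2.06, SE 0.40, adjusted p = 0.00959), Junb (1.39) and Id2 (1.11) rose, and Stat5b (-1.09) and Nfatc1 (-1.0) fell. Gata3 had 761 and 480 CPM in male VAT Treg, against 145 and 153 CPM in female VAT Treg. Among 9 alarmin and growth factor genes, 11 EGF family genes and 16 IL-4 and IL-13 response genes, 0 were called (medians -1.20, 0.32 and -0.66). Of 14 other T cell cytokine genes 1 was higher, Il10 (3.95), and 2 were lower, Ltb (-0.88) and Penk (-1.72), with a median of 0.21.

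Genes of cytokine signalling also differed in VAT Treg. Of 13 receptor partners and signalling genes 3 were higher and 0 lower in males, with a median of 0.05. Cish, a feedback inhibitor induced by STAT5, had 691 and 612 CPM in male VAT Treg, against 248 and 234 CPM in female VAT Treg (1.43, SE 0.22, edgeR adjusted p = 0.00148). Il9r, the receptor chain for IL-9, had 115 and 60.0 CPM in the male and 4.82 and 18.3 CPM in the female libraries (2.92, SE 0.58, adjusted p = 0.0126). Irs2, an adaptor of IL-4 and insulin receptors, had 638 and 188 CPM in the male and 39.3 and 21.0 CPM in the female libraries (3.78, SE 0.80, adjusted p = 0.019). The males lay above the females in all 3, which were picked by their calls. Of the pathway genes named as called between the sexes in VAT Treg, Il1rl1, Cish, Junb and Tnfrsf25 kept their call when each of the 4 libraries was left out in turn (highest adjusted p 3.65e-05, 0.0294, 0.0255 and 0.0414). Il10 and Il18r1 lost it without any 1 of the 4. Il9r and Penk lost it without female 1 or male 1. Gata3, Il2ra, Il7r, Irs2 and Ltb lost it without female 1, female 2 or male 1, Stat5b and Nfatc1 without female 1, male 1 or male 2, and Id2 without female 2, male 1 or male 2. With the 4 libraries fitted alone, 0 genes passed. Against spleen, male VAT Treg were higher in 5 of 16 upstream receptors and lower in 0, with Il1rl1 at 6.22, and higher in 5 and lower in 2 of 20 transcription factors, with Junb at 3.93 and Gata3 at 3.61 (medians 0.91 and 0.41, against 0.02 over all genes, of which 6.56% passed). In VAT libraries labelled Blimp1fl/flFoxp3cre 0 of these receptors were higher and 3 lower than in Foxp3cre: Il1rl1 (-3.32), Il2ra (-2.0) and Tnfrsf18 (-1.17), with a median of -0.46 against 0.0 over all genes, of which 0.819% passed. There Gata3 did not pass (-1.71, adjusted p = 0.101). Il1rl1 kept its call without either library labelled Blimp1fl/flFoxp3cre, and Il2ra and Tnfrsf18 lost theirs without either one. The pathway lists, like the members, were tested in the fits over all genes.

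The receptor chains had another pattern from the ligands. Il4ra was detected in all 45 libraries and Il13ra1 likewise. Il4ra levels in T cells ran from 100.8 CPM in the first male VAT CD4 library to 249.6 CPM in the first Foxp3cre spleen Treg library. Il4ra had 235 and 154 CPM in male VAT Treg, against 150 and 217 CPM in female VAT Treg (log2 fold change 0.08, SE 0.26, edgeR adjusted p = 1.0). Male spleen Treg had 178 and 190 CPM and female spleen Treg 153 and 146 CPM. VAT CD4 T cells had 101 and 107 CPM in the male and 111 and 131 CPM in the female libraries. Male VAT Treg lay above male CD4 T cells by 0.91 (SE 0.26, adjusted p = 0.0843), and DESeq2 called this difference (adjusted p = 0.0298). It also passed without the second male Treg library (1.18, adjusted p = 0.0404).

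**Figure D3:**
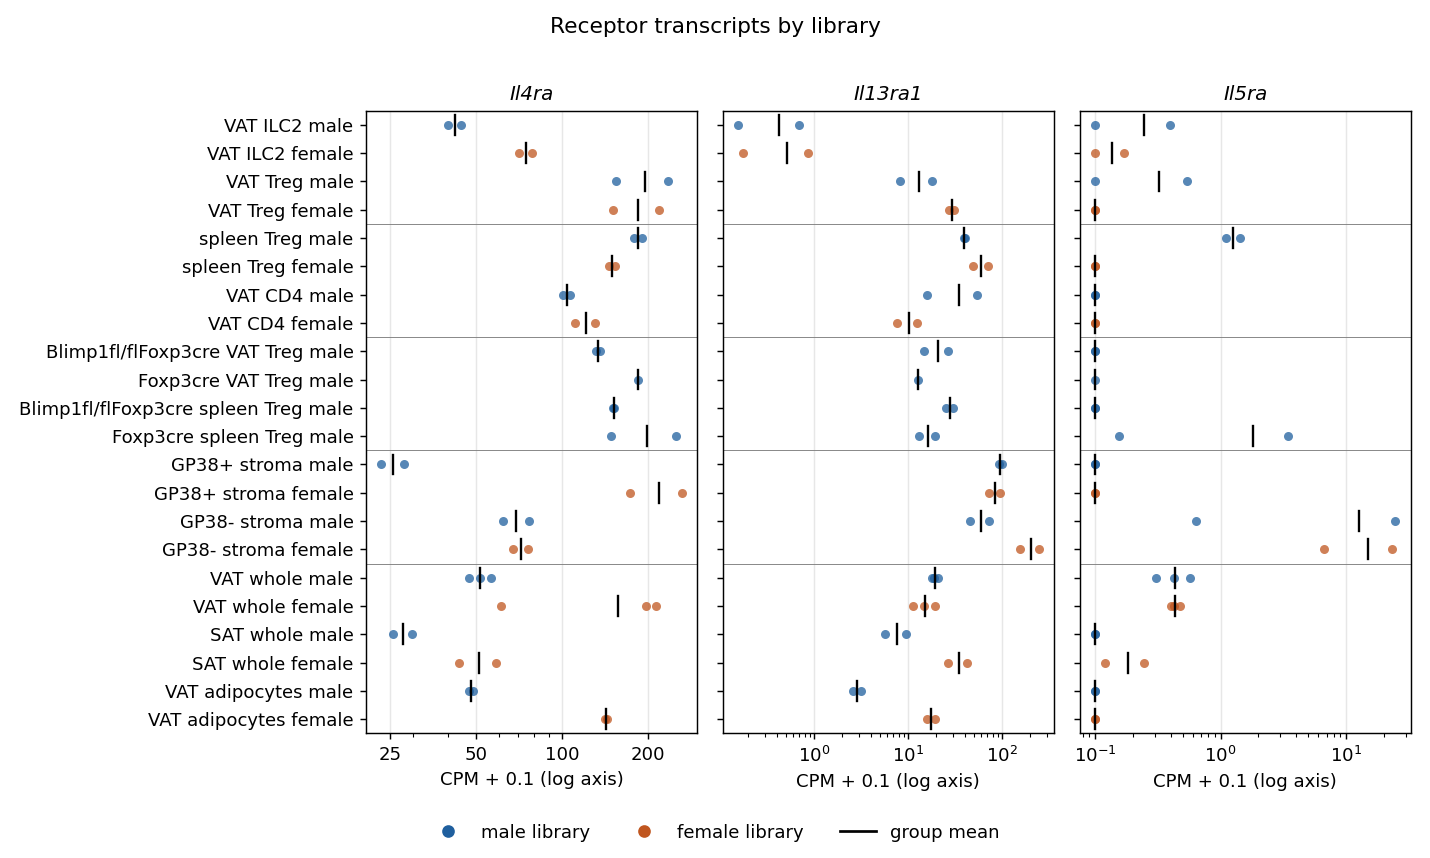
CPM of Il4ra, Il13ra1 and Il5ra in every library (points, blue for male and orange for female) with the group mean (black line), on log axes after a small constant was added. In Il4ra, GP38-positive stroma, whole VAT and adipocytes of males lie below those of females, and Il13ra1 is lowest in ILC2.

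Il13ra1, the chain that joins IL-4 receptor alpha to bind IL-13, was highest in GP38-negative stroma of females and at most 0.752 CPM in ILC2. ILC2 had 0.585 and 0.0555 CPM in the male and 0.752 and 0.0764 CPM in the female libraries. VAT Treg had 8.18 and 17.8 CPM in the male and 27.5 and 30.7 CPM in the female libraries, without overlap (-1.16, SE 0.54, edgeR adjusted p = 0.624). Male spleen Treg had 38.9 and 40.6 CPM, above male VAT Treg, and the difference of -1.61 (SE 0.54, adjusted p = 0.09) did not pass; without the 3 T cell libraries named above, which leaves 1 male VAT Treg library at 8.18 CPM, it was -2.25 (adjusted p = 0.0263). Male VAT CD4 T cells had 15.8 and 54.5 CPM and female ones 12.5 and 7.62 CPM (1.81, SE 0.55, adjusted p = 0.116). DESeq2 called this difference (adjusted p = 0.0271), and edgeR did without the first male CD4 library (2.44, adjusted p = 0.0134). The male library that then remains, with 54.5 CPM, is the T cell library highest in markers of other cells, at 10450 CPM against 1285 CPM in the first. Without it and the other 2 libraries named above the difference was 0.67 (adjusted p = 0.69). Leaving out the first male CD4 library, so that the same high library stood alone, also brought the male contrast of Treg with CD4 T cells past the threshold (-2.07, adjusted p = 0.0394), as well as its difference between the sexes (-3.60, adjusted p = 0.0178). Without the 3 libraries they were -0.94 and -2.39 (adjusted p = 0.701 and 0.29). With all libraries DESeq2 called the difference between the sexes (adjusted p = 0.0199).

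Il5ra, the IL-5 specific chain carried by eosinophils and by some B cells, was low in T cells and ILC2. It had 1.0 and 1.34 CPM in male spleen Treg and 0 in female spleen Treg, in VAT CD4 T cells and in GP38-positive stroma. Its highest levels were in GP38-negative stroma, with 24.6 and 0.541 CPM in the male and 23.1 and 6.59 CPM in the female libraries. B cell genes summed to 2142 to 2807 CPM in these libraries, and whether B cells have a part in Il5ra was not tested.

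In GP38-positive stroma, Il4ra was lower in males. It had 23.2 and 27.9 CPM in the male and 173 and 262 CPM in the female libraries, so both males were far below both females. The mean was 25.6 ± 3.31 CPM in males and 217 ± 63.1 CPM in females (SD, n = 2 each), a log2 fold change of -3.09 with an SE of 0.28 (edgeR adjusted p = 0.0166). It was 1 of 5 members tested, where 0.335% of 16413 genes passed. Of the 5, Csf2 and Il5ra were at 0 in GP38-positive cells of both sexes and could not be called. Without male 1, male 2 or female 2 the adjusted p was 0.0911, 0.138 and 0.0902, and the titles of the male libraries carry conflicting replicate numbers. Il13ra1 had 92.7 and 99.4 CPM in the male and 73.1 and 95.5 CPM in the female libraries (0.19, SE 0.32), overlapping. Egfr, the receptor of amphiregulin, had 441 and 369 CPM in the male and 199.7 and 160 CPM in the female libraries, without overlap but not called (1.17, adjusted p = 1.0). None of the pathway lists had a called gene in this comparison.

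In GP38-negative stroma, Il4ra had 62.0 and 76.3 CPM in the male and 67.4 and 76.1 CPM in the female libraries (-0.05, SE 0.26), overlapping. Il13ra1 had 73.6 and 45.4 CPM in the male and 157 and 246 CPM in the female libraries, without overlap (-1.76, SE 0.32, edgeR adjusted p = 0.0651). DESeq2 called it (adjusted p = 0.000101), as did edgeR with no filter on low counts (0.0465) or without the first male library (0.0259). Cd3e and Ptprc, given above, also differed between these libraries, and their part was not tested. By edgeR 0 of 5 members passed, 1 had an unadjusted p under 0.05, DESeq2 called 1 and 0.89% of genes passed. The difference of GP38-positive minus GP38-negative cells, compared between males and females in a test added after seeing the data, was -3.03 for Il4ra (SE 0.37, adjusted p = 0.049953), as 1 of 5 members where 0.213% of genes passed. It missed the threshold without any 1 of 6 of the 8 libraries (0.0998 to 0.2) and was kept without either GP38-negative male library. Between GP38-positive and GP38-negative cells, 42.1% of genes differed and 2 of 5 members did, a share near that background. Csf2 and Il5ra, at 0 in GP38-positive cells, were at least 238-fold and 707-fold lower there (adjusted p = 0.0122 and 0.00996), in cells with almost no Ptprc.

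**Figure D4:**
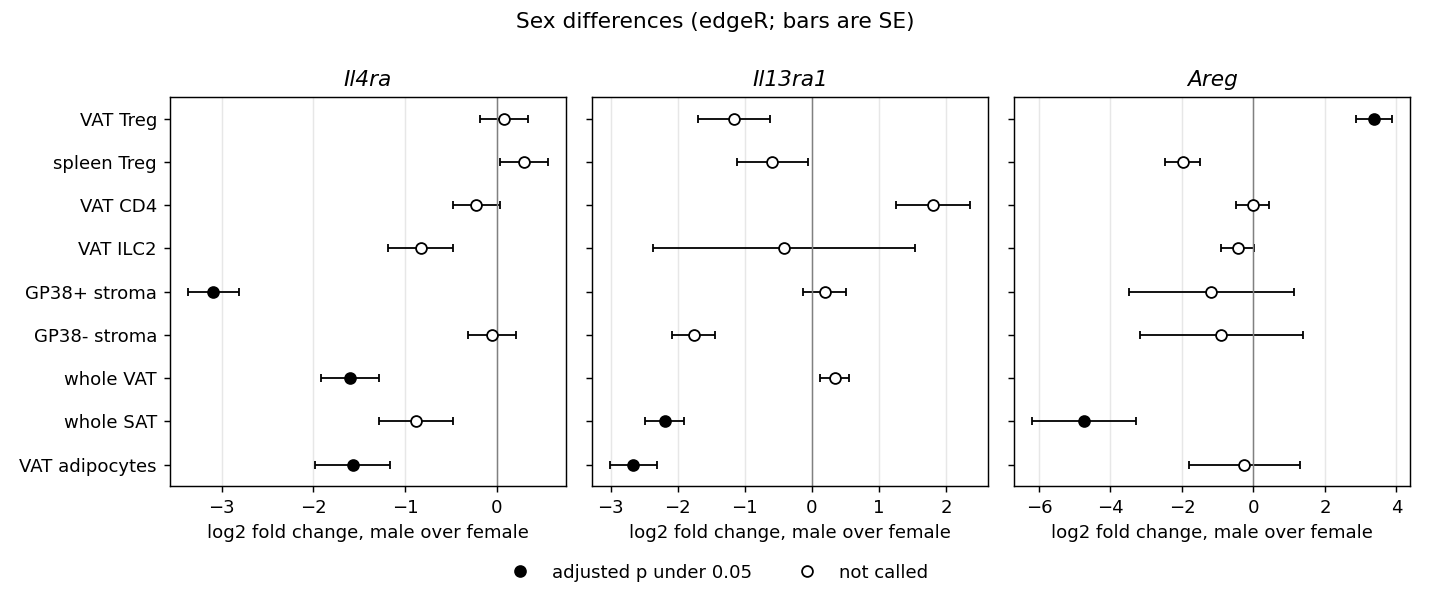
Log2 fold changes, male over female, of Il4ra, Il13ra1 and Areg in 9 cell populations and tissues (points; bars are SE from edgeR; filled points have an adjusted p under 0.05). Groups with 0 counts on 1 side are not drawn. Il4ra lies at -3.09 in GP38-positive stroma, -1.60 in whole VAT and -1.57 in adipocytes, and at 0.08 in VAT Treg.

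In whole VAT, Il4ra was lower in males too. It had 56.5, 51.4 and 47.0 CPM in males, against 60.8, 196 and 213 CPM in females. All males lay below all females, although the lowest female was close to the highest male. The mean was 51.6 ± 4.76 CPM in males and 157 ± 83.4 CPM in females (SD, n = 3 each), a log2 fold change of -1.60 with an SE of 0.32 (edgeR adjusted p = 0.00491), and the call was kept with any library left out. It was 1 of 5 members called, where 13.1% of 16917 genes were. Areg had 8, 10 and 8 counts in males and 0 in all 3 females, at least 7.43-fold higher in males (edgeR adjusted p = 0.279; DESeq2 0.0344). Il13 was at 0.351 to 0.504 CPM in males, against 0.142 to 0.329 CPM in females. The summed CPM of macrophage genes were 2189, 1985 and 2171 in males, against 764, 711 and 619 in females, and Ptprc was at 135 to 145 CPM in males, against 45.2 to 58.5 CPM in females. Their part in the values of whole tissue was not tested.

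Some genes around these pathways differed in whole VAT, where 13.1% of all genes did. Egfr had 107, 95.7 and 105 CPM in males, against 48.1, 56.1 and 55.9 CPM in females (0.94, SE 0.10, edgeR adjusted p = 4.27e-05), and of 11 EGF family genes 2 were higher, the other being the sheddase gene Adam17 (0.77), and 0 were lower (median -0.10), a share near that of all genes. Of 16 IL-4 and IL-13 response genes 3 were higher and 1 lower, with a median of 0.35, against -0.03 over all genes: Arg1 (1.67), the mannose receptor gene Mrc1 (0.86) and Fn1 (1.08) were higher and Mgl2 was lower (-0.86). Arg1 kept its call with any library left out, Fn1 lost it without any 1 of the 6, Mrc1 with any but male 2 left out, and Mgl2 without female 1, female 3, male 1 or male 3. Of 14 upstream receptors 3 were higher, led by Il7r (3.71), and 0 were lower. Csf2ra, a chain of the GM-CSF receptor, was higher by 1.16 (SE 0.14, adjusted p = 0.000126).

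In SAT, Il13ra1 was lower in males. It had 9.4 and 5.58 CPM in the male and 26.6 and 42.4 CPM in the female libraries, without overlap (-2.19, SE 0.29, edgeR adjusted p = 0.000338), and the call was kept with any library left out. Areg had 0 and 1.03 CPM in the male and 0.78 and 25.6 CPM in the female libraries. The groups overlapped, and the difference rested on 1 female library: the log2 fold change was -4.74 (SE 1.45, adjusted p = 0.0461) and, without female 2, -0.64 (adjusted p = 0.834). It was also lost without male 1 (-3.67, adjusted p = 0.189), with the 4 SAT libraries fitted alone (adjusted p = 0.15), with the replicate number as a block (0.0585) and with DESeq2 (0.0625). These were 2 of 5 members, where 16.5% of genes passed. A list of 14 mammary epithelial genes, chosen after seeing the data, summed to 12.5 and 14.5 CPM in male SAT, against 704 and 1603 CPM in female SAT, with the higher value in the library high in Areg. Gata3 had 0.384 and 1.78 CPM in the male and 25.8 and 78.8 CPM in the female libraries (-5.64). Erbb2 (-2.54) and Erbb3 (-3.67), EGF receptor family genes, were lower in males as well; of 11 EGF family genes 1 was higher and 3 were lower, with a median of -0.71 against -0.01 over all genes. The part of mammary epithelium in these values was not tested.

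The sex difference of Il13ra1 was not the same in both depots: VAT minus SAT, males against females, it was 2.54 (SE 0.36, edgeR adjusted p = 0.000675), in a test added after seeing the data. For Areg the same test gave 10.37 (SE 3.03, adjusted p = 0.0393), but with female VAT at 0 this value is not a size, and it ended when any 1 of 8 of the 10 libraries was left out (0.0577 to 0.13). These were 2 of 5 members, where 16% of genes passed. Il4ra in SAT had 29.7 and 25.6 CPM in the male and 43.5 and 58.4 CPM in the female libraries (-0.88, SE 0.40, adjusted p = 0.161), and was called with the 4 SAT libraries fitted alone (adjusted p = 0.0352). The difference between depots in its sex difference was -0.72 (adjusted p = 0.382) and passed without female VAT 1 (-1.11, adjusted p = 0.00256).

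In VAT adipocytes both receptor chains were lower in males. Il4ra had 48.6 and 47.2 CPM in the male and 144 and 141 CPM in the female libraries (-1.57, SE 0.41, edgeR adjusted p = 0.00921), and without male 1 or male 2 the adjusted p was 0.0525 and 0.0617. Il13ra1 had 2.5 and 3.06 CPM in the male and 15.8 and 19.3 CPM in the female libraries (-2.66, SE 0.35, adjusted p = 0.000106), and its call was kept with any library left out. Neither gene overlapped between the sexes. Il13 had 19 and 2 counts in males and 0 in both females, at least 4.83-fold higher (adjusted p = 0.027), which ended without male 1, female 1 or female 2 (0.0599 to 0.202). These were 3 of 5 members, where 35.3% of genes passed.

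Of 16 IL-4 and IL-13 response genes, 10 were lower in male adipocytes and 0 higher, among them the adhesion gene Vcam1 (-2.88), Mgl2 (-2.65) and the eotaxin gene Ccl11 (-1.83). The list's median log2 fold change was -1.96 (-1.88 with genes absent from a group at their bound), against -0.05 over all genes. Of 14 receptor partners 7 were lower and 2 higher, with Cish at 2.18, Csf2rb at -1.70 and Il2rg at -1.82. Il33, which encodes the alarmin that ST2 binds, was lower at -2.77 (SE 0.47, edgeR adjusted p = 0.000616). Markers of other cells moved as well, with endothelial genes summing to 955 and 932 CPM in the male and 3793 and 3315 CPM in the female libraries, and macrophage genes to 243 and 194 CPM in the male and 334 and 429 CPM in the female libraries. Their part in these differences was not tested.

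Over the 22 group means, some genes had patterns close to those of the members, by Pearson's r of log2 CPM plus 1 over 13624 genes. As ILC2 are the same few points for every ligand and come from another kit, these values describe and do not test. The closest to Il5 were Ccdc184 (0.976), Erich2 (0.964) and Hilpda (0.96), and to Csf2 Dach2 (0.974), Ccdc184 (0.973) and Hilpda (0.96). The closest to Il13 were Fam183b (0.965), Tmprss11g (0.959) and Wipf3 (0.957), and to Areg Ccrl2 (0.939), Pcsk1 (0.93) and Rgs2 (0.93). Il5 and Csf2 had a value of 0.96 with each other, Il5 and Il13 0.89, and Il5 and Areg 0.82. The receptor chains Il4ra and Il13ra1 had no such close partners, with Gprasp2 at 0.768 for Il4ra and Twsg1 at 0.865 for Il13ra1. The chain Il5ra did have one, Cyp4b1-ps2 at 0.976.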

How the data were processed

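Per the labels, RNA-seq libraries were made from pools of mice. The authors deposited a table of whole-number read counts per gene, and log2 FPKM values per library, whose normalization is not given in sources used here; these served only for gene names and to check columns (45 of 45 matched their own count column best). The submitters' processing notes name Subread 1.6.2, featureCounts, limma, GRCm38 and mm10; strand and annotation are not given in sources used here. A further 6 columns were not used. Identifiers without a name held 0.383% to 4.994% of reads.

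Counts were fitted with edgeR 4.0.16 in R 4.3.3 (filterByExpr by group, TMM, estimateDisp, glmQLFit, glmQLFTest, two-sided, Benjamini-Hochberg over all genes), in 4 fits with group as the term, of 19 T cell, 4 ILC2, 8 stromal and 14 fat libraries. DESeq2 1.42.0 and the settings of the closing section were alternatives. Named genes were all members, up to 3 called genes of smallest adjusted p per list and comparison, and Il1rl1, Gata3, Il33, Egfr, Csf2rb, Il2rg and Il10; other list genes named to complete a count were chosen after their values were seen. Members and lists were chosen with earlier results of these data known. P-values measure the spread between pools, since no label ties pools to other animals, and every replicate pair differed beyond sampling noise.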

Additional observations from a re-analysis of the deposited data

Results flagged for a closer look

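The difference between VAT and spleen Treg was larger in males than in females for Areg, by 5.35 on the log2 scale (SE 0.71, edgeR adjusted p = 0.000872). The excess of Treg over CD4 T cells in VAT was also larger in males for Areg, by 3.4 (SE 0.68, adjusted p = 0.0345). These comparisons share the VAT Treg libraries. In stroma, the GP38-positive minus GP38-negative difference of Il4ra was lower in males, at -3.03 (SE 0.37, adjusted p = 0.049953). Between fat depots, VAT minus SAT in males against females was 10.37 for Areg (adjusted p = 0.0393), a fitted value with female VAT at 0 counts, and 2.54 for Il13ra1 (SE 0.36, adjusted p = 0.000675). Each was picked out because a test of the difference between groups passed.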

How the results depend on the processing

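Of 1358 values of single members under the alternatives, 1272 kept their side of the threshold, 66 lost it, 20 gained it and 0 reversed a call, while 96 values of uncalled members had the other sign. The number of members called fell to 0 with only the groups compared in VAT Treg male versus female (against 1), in female VAT versus spleen (1), in the tissue by sex difference (1), in Treg versus CD4 T cells of males (2) and females (1) and in their difference (1), and to 1 in the depot by sex difference (2). With DESeq2 it was 1 in spleen Treg, VAT CD4 T cells and GP38-negative stroma (0 each) and in SAT (2), and 2 in male VAT versus spleen (4), the Treg by CD4 by sex difference, the GP38 by sex difference and whole VAT (1 each). No filter on low counts gave 1 in spleen Treg and in GP38-negative stroma (0 each). It also let Il13 pass in male Treg versus CD4 T cells (edgeR adjusted p = 0.024). DESeq2 size factors gave 0 in the GP38 by sex difference (1). With the replicate number as a block it was 2 in male VAT versus spleen, 1 in SAT and 0 in the GP38 by sex difference, and the same count elsewhere; same-numbered libraries share only a number in the labels. Leaving out each library gave 0 to 1 in VAT CD4 T cells, female VAT versus spleen, female Treg versus CD4 T cells, Blimp1fl/flFoxp3cre VAT (0 in both), GP38-positive and GP38-negative stroma, 1 to 3 in male VAT versus spleen, 0 to 2 in the Treg by CD4 by sex and GP38 by sex differences, and 1 to 2 in male Treg versus CD4 T cells, SAT, the depot by sex difference and adipocytes. The causes were not tested. Over all genes, calls in VAT Treg between the sexes numbered 280 in the main setting, 0 with only the groups compared and 549 with DESeq2; in male VAT versus spleen Treg 1137, against 2111 with DESeq2; and in ILC2 5, against 29 with DESeq2. Groups of 1 to 3 libraries and members at a few counts (Il9, Il5ra, Il4, Il13 outside ILC2 and male VAT Treg) limit what could be detected.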
